A study of Mus musculus with 18 samples.

Results

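Dnmt1, Uhrf1, Dnmt3a, Dnmt3b, Tet1, Tet2, Tet3 and Tdg encode the enzymes that copy, write and remove methyl groups on cytosine in mouse DNA. They were taken by name, as the genes of these roles, with earlier results of these data known. They are 8 of the 35275 genes in the deposited expression table. All 8 passed the filter on low values that left 13869 genes for testing. RNA was measured by sequencing polyadenylated RNA from C2C12, an established mouse myoblast line that leaves the cell cycle and fuses into myotubes when serum is lowered, here a stock labelled PAX7 negative. There were 3 kinds of cell, all C2C12: wild-type control cells, cells made to overexpress the spliced form of MUNC, and cells made to overexpress MUNC genomic. MUNC is a long noncoding RNA from upstream of Myod1. Each kind was collected while proliferating in growth medium with 20% serum (GM) and after 3 days in differentiation medium with 2% horse serum (DM3), as 3 biological replicates, which makes 6 groups and 18 libraries. How the overexpressing lines were made, and whether each is 1 clone, is not given in the sources used here.

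DNA methylation in mammals sits mostly on CG dinucleotides. After replication the new strand lacks the mark. UHRF1 recognises the hemimethylated sites and brings DNMT1 to them, so both are known as the maintenance machinery of dividing cells. DNMT3A and DNMT3B set methylation on sites that had none. The TET proteins oxidise 5-methylcytosine, and thymine DNA glycosylase (TDG) cuts out the further oxidised bases, which base excision repair then replaces with unmodified cytosine. Muscle differentiation combines exit from the cell cycle with the opening of muscle genes, and both settings are known to involve these enzymes.

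Recovered depth lay between 38416702 and 68788327 reads per library, and the member with the fewest reads, Tet1, still had 50 or more in each. Values are in FPM, the authors' fragment counts scaled for library size, with no division by gene length. Of the muscle markers, Myf5 (71.8 FPM in control GM) was present, whereas Myod1 averaged 0.0285 FPM in growing and 0.0993 FPM in differentiated control cells, and no gene carries the name of MUNC, so its overexpression was not checked. Library MUNC spliced DM3 replicate 1 stood apart in genes of DNA replication, and called results on MUNC spliced DM3 that its loss ended or moved by over 1.5 times are given with and without it. The source label, myoblasts or myotubes, did not match the title in 9 of 18 samples, and groups were taken from titles.

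Differences were tested with limma on log2(FPM + 1) across all tested genes, and genes with a p under 0.05 after Benjamini-Hochberg adjustment over all of them were called. In control cells 6 of the 8 genes were called between DM3 and GM, 2 higher and 4 lower, where 58.2% of all tested genes were called. In MUNC spliced cells 3 of 8 were called, all lower in DM3, where 35.6% of all tested genes were called and 18.4% were lower. In MUNC genomic cells 4 of 8 were called, 1 higher and 3 lower, where 51.4% of all tested genes were called. Uhrf1, Dnmt1 and Tdg were lower in DM3 in all 3 kinds of cell. In both MUNC lines the counts stood near the share over all tested genes. The 3 DM3 libraries lay wholly above or below the 3 GM libraries for 5 of the 8 genes in control, 5 in MUNC spliced and 4 in MUNC genomic cells, where 62.4%, 44.6% and 62.8% of all tested genes did.

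**Figure D1:**
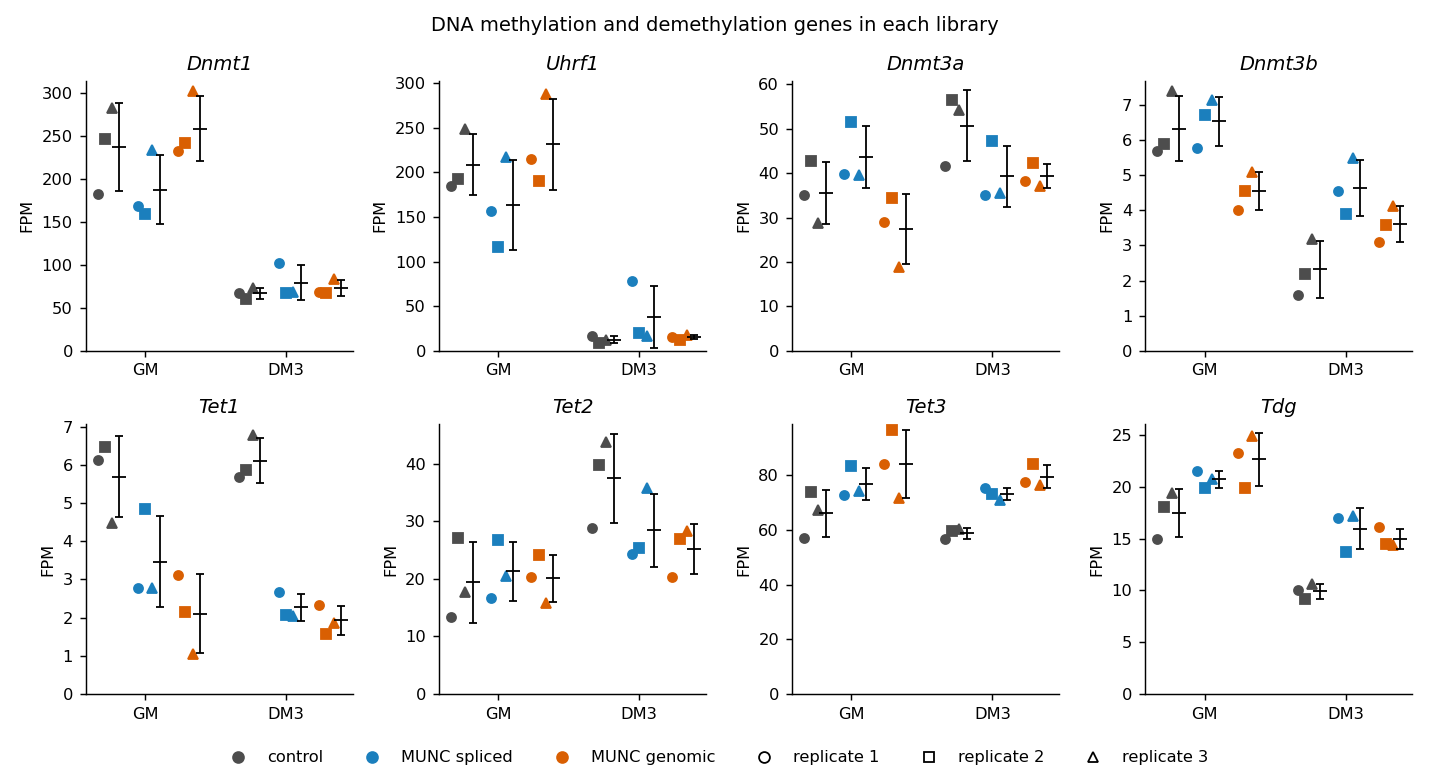
FPM (vertical axis, from 0) of the 8 genes in each of the 18 libraries, by medium and by kind of cell, with symbols for replicates and a bar with whiskers for the mean and SD of 3 libraries. Uhrf1 drops from between 117 and 288 FPM in GM to between 9.09 and 77.8 FPM in DM3, and Tet1 is lower in both MUNC lines than in control in DM3.

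Uhrf1 (ENSMUSG00000001228, GRCm38 chr17:56303321-56323486, plus strand) changed most. Control cells had 185, 192 and 248 FPM in GM and 16.5, 9.09 and 11.6 FPM in DM3. Every GM library was above every DM3 library. The level was 16.8-fold lower in DM3, a log2 change of -3.99 (SE 0.408, limma, adjusted p = 1.06e-06). MUNC genomic cells gave 215, 190.4 and 288 FPM in GM and 15.2, 12.5 and 17.3 FPM in DM3. This was 15.4-fold lower, a log2 change of -3.85 (SE 0.408, limma, adjusted p = 2.46e-06). In such bulk samples fewer cells expressing a gene and less RNA per cell cannot be told apart.

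MUNC spliced cells kept more Uhrf1 RNA in DM3, mainly in 1 library. They had 157, 117 and 217 FPM in GM and 77.8, 20.1 and 16.2 FPM in DM3, a log2 change of -2.38 (SE 0.408, limma, adjusted p = 0.000388). Replicate 1 in DM3 was far above the other two, and the groups still did not overlap. Without it the log2 change was -3.07 (limma, adjusted p = 2.62e-07). Against control in DM3, Uhrf1 was higher in MUNC spliced cells by 1.22 on the log2 scale (SE 0.408, limma, adjusted p = 0.0230), with overlapping libraries. The call was lost without MUNC spliced DM3 replicate 1 (0.54, limma, adjusted p = 0.113), without control DM3 replicate 2 (1.04, limma, adjusted p = 0.0926) and without control DM3 replicate 3 (1.20, limma, adjusted p = 0.0605). The authors' deposited table did not call this difference. The fall on differentiation differed between MUNC spliced and control cells by 1.61 (95% interval 0.39 to 2.83), which missed the threshold (limma, adjusted p = 0.0717). Without MUNC spliced DM3 replicate 1 it was 0.92 (limma, adjusted p = 0.102). It was called without MUNC spliced DM3 replicate 3 (2.02, limma, adjusted p = 0.0243), and by edgeR (adjusted p = 0.0442) and DESeq2 (adjusted p = 0.0383) on recovered reads.

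Dnmt1 (ENSMUSG00000004099, GRCm38 chr9:20907209-20959888, minus strand), the maintenance methyltransferase, had 183, 247 and 283 FPM in the control libraries of GM and 67.4, 60.6 and 73.0 FPM in those of DM3. It was 3.55-fold lower in DM3, a log2 change of -1.79 (SE 0.192, limma, adjusted p = 1.53e-06). MUNC genomic cells had 232, 242 and 302 FPM in GM and 68.6, 67.4 and 83.9 FPM in DM3. Their log2 change was -1.80 (SE 0.192, limma, adjusted p = 2.48e-06). In both kinds of cell all GM libraries were above all DM3 libraries.

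MUNC spliced cells had 169, 159.7 and 234 FPM of Dnmt1 in GM and 103, 66.9 and 68.0 FPM in DM3, again without overlap. The log2 change was -1.24 (SE 0.192, limma, adjusted p = 0.000169). Neither line differed from control in Dnmt1 by the test. For MUNC spliced cells the interval of the log2 difference ran from -0.74 to 0.07 in GM and from -0.19 to 0.62 in DM3. For MUNC genomic cells it ran from -0.27 to 0.54 in GM and from -0.28 to 0.53 in DM3. Dnmt1 fell less than Uhrf1, so that per kilobase of exon the ratio of Dnmt1 to Uhrf1 went from 0.656 ± 0.0858 in control GM to 3.27 ± 0.807 in control DM3 (SD, n = 3 each).

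The promoters of these 2 genes are shown because both fell with the genes of DNA replication, many of which are known targets of E2F factors. RefSeq windows (GRCm38.p6) from 250 bases before to 50 bases after each annotated start were searched on both strands for 4 spellings of the E2F site, TTTCGCGC, TTTGGCGC, TTTCCCGC and TTTGCCGC. The 8 genes have 13 such windows. The words were found in 2 of the 13, 1 of the 3 windows of Dnmt1 and 1 of the 2 windows of Uhrf1. Dnmt3b and Tdg, which were also lower in control DM3, had no match. Among all 32851 windows of the same length 2.26% hold a word. Each of the 4 words holds CG, and each matching window has 33 CG against a median of 7 over all windows. Among the 2812 windows with at least 33 CG, 4.27% hold a word. Capitals mark the matches in the windows below, each written 5′ to 3′ on the gene's own strand.
Dnmt1, chr9:20952574-20952873, minus strand: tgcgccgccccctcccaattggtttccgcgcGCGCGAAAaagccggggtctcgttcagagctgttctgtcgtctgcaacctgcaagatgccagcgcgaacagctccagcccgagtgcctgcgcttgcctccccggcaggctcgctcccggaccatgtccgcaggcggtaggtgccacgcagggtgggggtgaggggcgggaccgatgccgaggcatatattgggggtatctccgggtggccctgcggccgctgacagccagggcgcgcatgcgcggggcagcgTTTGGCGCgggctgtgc
Uhrf1, chr17:56304063-56304362, plus strand: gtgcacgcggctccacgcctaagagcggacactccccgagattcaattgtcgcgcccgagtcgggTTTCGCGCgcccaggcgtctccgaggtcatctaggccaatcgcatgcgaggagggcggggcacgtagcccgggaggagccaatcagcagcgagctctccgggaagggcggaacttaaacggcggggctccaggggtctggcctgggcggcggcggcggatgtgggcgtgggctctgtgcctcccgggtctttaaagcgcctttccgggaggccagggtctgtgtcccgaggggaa
In Dnmt1 the first match reads TTTCGCGC on the opposite strand and begins at -219 from the annotated start of this window. The second reads TTTGGCGC on the gene's strand and begins at 33 from that start. The other annotated Dnmt1 starts, such as that of the window chr9:20952930-20953229, lie upstream of both matches, and their windows hold none. In Uhrf1 the match reads TTTCGCGC on the gene's strand and begins at -185 from the start. The FPM values do not tell which annotated start is used. A match describes these letters only, and no binding was measured in this series. Whether E2F factors had a part in the lower levels was not tested.

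Genes of DNA replication were lower in DM3 along with the maintenance pair. Of 27 genes of S phase (the helicase subunits Mcm2 to Mcm7, Cdc6, Rrm2 and others), 27 were lower in DM3 than in GM in control cells, with a median log2 change of -2.97, where 28.6% of all tested genes were lower. All 27 were also lower in DM3 in MUNC spliced cells (median -1.51, or -1.87 without DM3 replicate 1, 18.4% of all tested genes) and in MUNC genomic cells (median -2.71, 25.1% of all tested genes). Mcm5 fell most in control cells, from 249 ± 47.4 to 8.20 ± 4.74 FPM (SD, n = 3 each), and Cdc6, which loads the helicase, from 67.7 ± 11.8 to 2.15 ± 1.52 FPM.

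The same list separated MUNC spliced from control cells in DM3. Summed over the 27 genes, control DM3 libraries held 556, 326 and 362 FPM, and MUNC spliced DM3 libraries held 1621, 697 and 606 FPM. The MUNC spliced libraries were all above control, and replicate 1, the library with the most Uhrf1 and Dnmt1 in DM3, was highest. Of the 27 genes, 21 were higher in MUNC spliced than in control cells in DM3 and none was lower, where 22.3% of all tested genes were higher. Without that replicate 15 were higher and 2 lower. Mcm5 had 77.8, 24.4 and 15.9 FPM in MUNC spliced DM3, and its log2 difference from control of 1.94 (limma, adjusted p = 0.00227) was 1.29 without replicate 1 (limma, adjusted p = 0.00920). In MUNC genomic DM3, which held 569, 503 and 531 FPM, 3 of the 27 were higher than control (Mcm2 by 1.42 and Mcm6 by 1.12 on the log2 scale) and 2 lower (E2f1 by -0.79 and Cdt1 by -0.59). Of all tested genes 19.3% were higher and 20.9% lower there, both larger shares than on this list. Over the 9 DM3 libraries Uhrf1 followed the mean log2(FPM + 1) of the 27 genes (Pearson's r 0.979, or 0.944 without MUNC spliced replicate 1). For Dnmt1 r was 0.765, or 0.164 without that replicate. Over the 9 GM libraries r was 0.938 for Uhrf1 and 0.753 for Dnmt1. The part of proliferating cells in the levels of Uhrf1 and Dnmt1 was not tested.

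**Figure D2:**
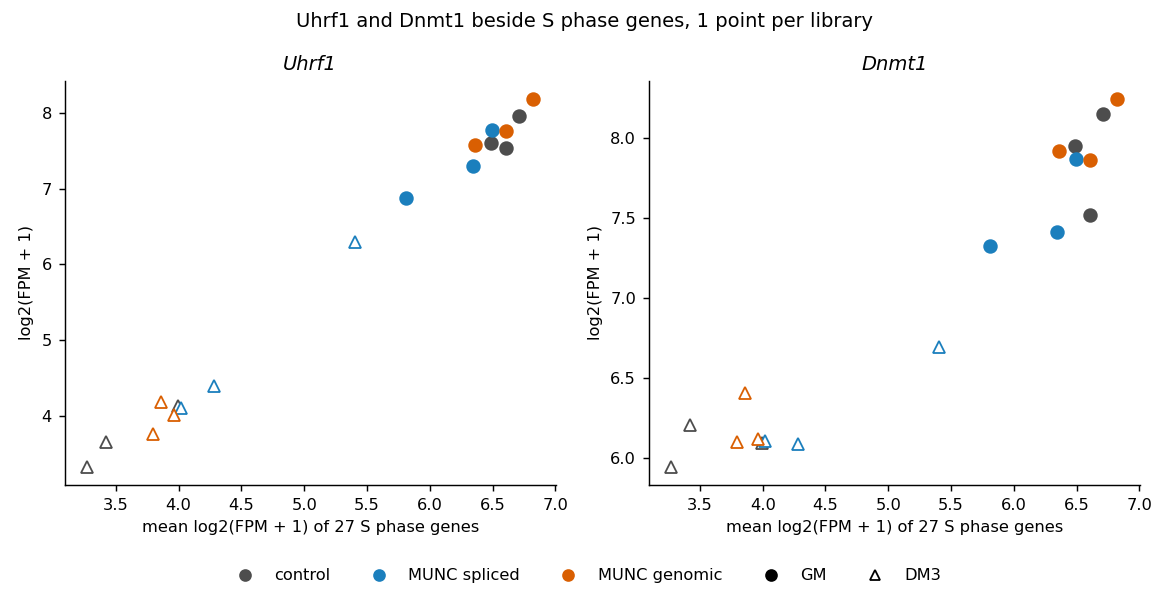
Log2(FPM + 1) of Uhrf1 and Dnmt1 (vertical axes) against the mean log2(FPM + 1) of 27 S phase genes (horizontal axes), 1 point per library, with filled circles for GM and open triangles for DM3. GM and DM3 libraries form separate groups, and MUNC spliced DM3 replicate 1, with 1621 FPM summed over the S phase genes, lies between them.

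Dnmt3a (ENSMUSG00000020661, GRCm38 chr12:3806007-3914443, plus strand), a de novo methyltransferase, was higher after differentiation in control and MUNC genomic cells, by small amounts. Control cells had 35.2, 42.7 and 28.7 FPM in GM and 41.6, 56.4 and 54.2 FPM in DM3, with 1 GM library above the lowest DM3 library. The log2 change was 0.51 (SE 0.201, limma, adjusted p = 0.0398). It was not called without control GM replicate 1 (limma, adjusted p = 0.0777) or 3 (0.170), without control DM3 replicate 2 (0.132) or 3 (0.112), or with edgeR on recovered reads (0.0555).

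MUNC genomic cells had 29.1, 34.5 and 18.8 FPM of Dnmt3a in GM and 38.3, 42.3 and 37.2 FPM in DM3, without overlap. The log2 change was 0.54 (SE 0.201, limma, adjusted p = 0.0337), and it was 0.30 without GM replicate 3 (limma, adjusted p = 0.210). The call was also lost without DM3 replicate 1 (limma, adjusted p = 0.0614), 2 (0.101) or 3 (0.0549) and with edgeR (0.0516). In MUNC spliced cells Dnmt3a had 39.8, 51.6 and 39.6 FPM in GM and 35.0, 47.3 and 35.6 FPM in DM3, overlapping, with an interval of the log2 change from -0.58 to 0.27.

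In GM the 2 lines differed in Dnmt3a. All 3 MUNC spliced libraries were above all 3 MUNC genomic libraries, by 0.68 on the log2 scale (SE 0.201, limma, adjusted p = 0.0145). This was the only one of the 8 genes called between the lines in GM, where 35.8% of all tested genes were called. The call was lost without MUNC spliced GM replicate 2 (0.56, limma, adjusted p = 0.0702) or MUNC genomic GM replicate 3 (0.44, limma, adjusted p = 0.0852). Same-numbered libraries deviated together in this comparison, and with the replicate number as a block 4 of the 8 were called. The added genes were Dnmt1 (-0.47, limma, adjusted p = 0.0322), Dnmt3b (0.44, adjusted p = 0.00550) and Tet1 (0.55, adjusted p = 0.0414). Without the block, Dnmt1 was called when MUNC spliced GM replicate 3 was left out (-0.64, limma, adjusted p = 0.0220), and Tet1 when MUNC genomic GM replicate 1 was (0.78, limma, adjusted p = 0.0154).

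Dnmt3b (ENSMUSG00000027478, GRCm38 chr2:153649450-153687730, plus strand), the other de novo methyltransferase, went the opposite way in control cells. Its control libraries had 5.70, 5.89 and 7.39 FPM in GM but 1.57, 2.19 and 3.19 FPM in DM3. The groups did not overlap, and the log2 change was -1.16 (SE 0.172, limma, adjusted p = 2.94e-05). In FPM per kilobase of exon only Tet1 was then lower among the 8 genes, with Dnmt3b at 0.454 ± 0.159 (SD, n = 3).

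Both MUNC lines kept more Dnmt3b in DM3. MUNC spliced cells had 5.78, 6.71 and 7.14 FPM in GM and 4.54, 3.89 and 5.48 FPM in DM3. The groups did not overlap, but the log2 change of -0.43 was not called (limma, adjusted p = 0.0635). MUNC genomic cells had 4.02, 4.56 and 5.08 FPM in GM and 3.11, 3.58 and 4.14 FPM in DM3, with a log2 change of -0.27 (limma, adjusted p = 0.202).

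Against control in DM3, Dnmt3b was 2.00-fold higher in MUNC spliced cells, without overlap of libraries (log2 0.78, SE 0.172, limma, adjusted p = 0.00160). It was 1.56-fold higher in MUNC genomic cells, where the lowest library stood under the highest control library (log2 0.50, SE 0.172, limma, adjusted p = 0.0294). The MUNC genomic call was lost without control DM3 replicate 1 (0.33, limma, adjusted p = 0.151) or 2 (0.48, 0.0768), or without MUNC genomic DM3 replicate 2 (0.50, 0.0672) or 3 (0.42, 0.111). In GM, Dnmt3b did not differ from control by the test, with an interval from -0.32 to 0.41 in MUNC spliced cells and one from -0.76 to -0.03 in MUNC genomic cells, whose libraries were all below control. In the fit with the replicate block the MUNC genomic difference in GM was called (-0.40, limma, adjusted p = 0.0130).

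The response of Dnmt3b to differentiation was the only one of the 8 that limma with all libraries called different between a line and control. The change from GM to DM3 was 0.89 higher on the log2 scale in MUNC genomic than in control cells (SE 0.243, limma, adjusted p = 0.0294), where 8.81% of all tested genes were called. The call was lost in 7 of 12 fits that leave out 1 library, in which the value ran from 0.73 to 0.90 and the adjusted p from 0.0552 to 0.0783. Those libraries were control GM replicate 3, MUNC genomic GM replicates 1 and 2, control DM3 replicates 1 and 2 and MUNC genomic DM3 replicates 2 and 3. For MUNC spliced against control the difference was 0.74 (95% interval 0.22 to 1.25, limma, adjusted p = 0.0522). It was called without control DM3 replicate 3 (0.92, limma, adjusted p = 0.0239) or MUNC spliced DM3 replicate 2 (0.84, limma, adjusted p = 0.0444). There limma called 0 of the 8 genes, where 14.4% of all tested genes were called. At an unadjusted p under 0.05 there were 4 of 8. EdgeR called 1, Uhrf1, and DESeq2 called 2, Uhrf1 and Dnmt3b (for Dnmt3b 0.97, DESeq2, adjusted p = 0.0241). Between the 2 lines none of the 8 responses was called by limma, edgeR or DESeq2, where 10.5% of all tested genes were called by limma, and 2 of 8 had an unadjusted p under 0.05. For Dnmt3b the response in MUNC spliced minus that in MUNC genomic cells was -0.16 (limma, adjusted p = 0.745).

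The balance of the de novo pair changed with these values. Per kilobase of exon the ratio of Dnmt3a to Dnmt3b was 1.89, 2.22 and 1.19 in control GM and 8.10, 7.91 and 5.22 in control DM3. It was 2.36, 3.73 and 1.99 in MUNC spliced DM3 and 3.78, 3.62 and 2.76 in MUNC genomic DM3. The control DM3 libraries were above every library of the other 5 groups. Exon length here counts all annotated exons of a gene, so the ratio's absolute size depends on the isoforms used, and its differences between groups assume that these do not change.

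**Figure D3:**
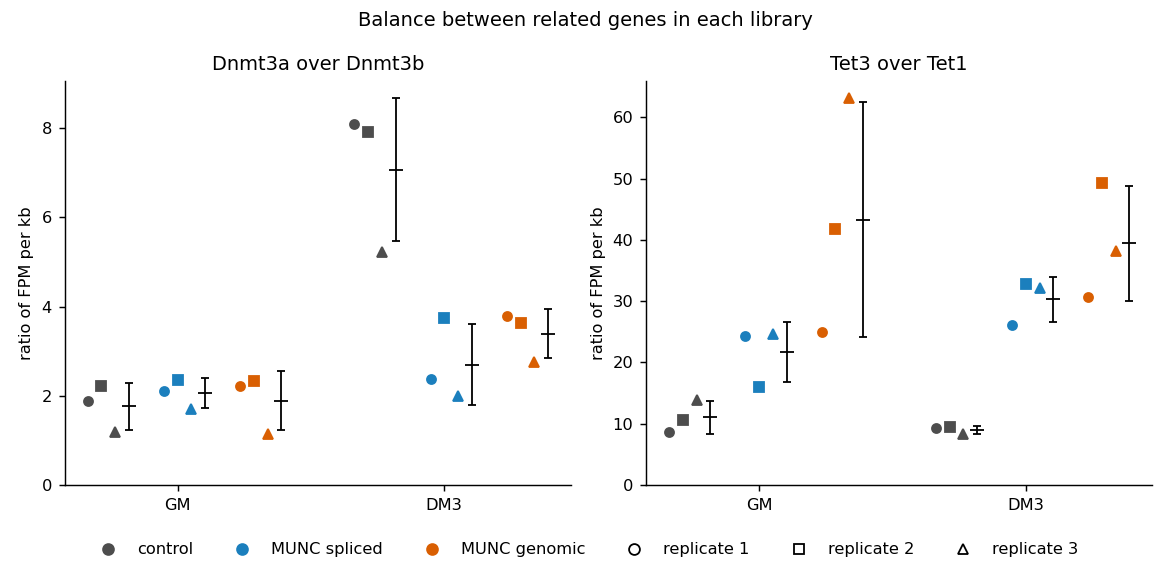
Ratio of Dnmt3a to Dnmt3b (left) and of Tet3 to Tet1 (right), each in FPM per kilobase of exon, in each library by medium and kind of cell, with a bar and whiskers for the mean and SD of 3 libraries. The first is highest in control DM3 (5.22 to 8.10) and the second is lower in control (8.24 to 13.9) than in any library of the MUNC lines (16.0 to 63.2).

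Tet1 (ENSMUSG00000047146, GRCm38 chr10:62804570-62908996, minus strand), which oxidises 5-methylcytosine, was lower than control in MUNC genomic cells in both media and in MUNC spliced cells in DM3. Control GM libraries had 6.13, 6.46 and 4.49 FPM, compared with 3.11, 2.14 and 1.05 FPM in MUNC genomic GM. All MUNC genomic libraries were below control, 2.71-fold lower on average (log2 -1.15, SE 0.224, limma, adjusted p = 0.00108). MUNC spliced GM libraries had 2.78, 4.84 and 2.78 FPM, with replicate 2 above the lowest control library. Their log2 difference of -0.60 was called at limma's adjusted p = 0.0459, but not without control GM replicate 1 (-0.55, 0.118) or 2 (-0.52, 0.130), nor without MUNC spliced GM replicate 1 (-0.50, 0.146) or 3 (-0.50, 0.139). EdgeR and DESeq2 on recovered reads did not call it either (adjusted p = 0.0685 and 0.0592).

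In DM3 both lines had less Tet1 than control in every library. Control had 5.68, 5.86 and 6.78 FPM, MUNC spliced 2.68, 2.07 and 2.04 FPM, and MUNC genomic 2.33, 1.58 and 1.85 FPM. The level was 2.70-fold lower in MUNC spliced (log2 -1.12, SE 0.224, limma, adjusted p = 0.000741) and 3.18-fold lower in MUNC genomic cells (log2 -1.29, SE 0.224, limma, adjusted p = 0.000229). Differentiation itself did not change Tet1 by the test. The intervals ran from -0.38 to 0.57 in control, from -0.90 to 0.05 in MUNC spliced and from -0.51 to 0.44 in MUNC genomic cells, and only the MUNC spliced groups did not overlap. The fold changes on the log2(FPM + 1) scale understate differences at such low levels.

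Tet2 (ENSMUSG00000040943, GRCm38 chr3:133463679-133545139, minus strand), which lacks the DNA-binding CXXC domain that Tet1 carries, was higher in DM3 in control cells. Its control libraries had 13.3, 27.01 and 17.7 FPM in GM but 28.8, 39.7 and 43.8 FPM in DM3, without overlap. The log2 change was 0.95 (SE 0.248, limma, adjusted p = 0.00368). In the lines Tet2 was not called between DM3 and GM, at 24.3, 25.3 and 35.7 FPM in MUNC spliced DM3 and 20.3, 26.99 and 28.4 FPM in MUNC genomic DM3. Their log2 changes were 0.41 (95% interval -0.12 to 0.93) and 0.32 (-0.20 to 0.85).

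Every MUNC genomic DM3 library had less Tet2 than every control DM3 library, a log2 difference of -0.55 that missed the threshold (limma, adjusted p = 0.0913). With the replicate block it was called (limma, adjusted p = 0.0278), as it was without control DM3 replicate 1 (-0.72, limma, adjusted p = 0.0463). The authors' deposited table also called it (log2 -0.55, adjusted p = 0.0114). In GM the interval of the log2 difference from control was -0.37 to 0.68 in MUNC spliced cells and -0.44 to 0.61 in MUNC genomic cells.

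Tet3 (ENSMUSG00000034832, GRCm38 chr6:83362373-83459084, minus strand) was the most abundant of the TET genes per kilobase in all 6 groups and varied least of the 8. Its highest group mean (84.1 FPM, MUNC genomic GM) was 1.43 times its lowest (58.8 FPM, control DM3). It was not called on differentiation, with intervals of the log2 change from -0.39 to 0.08 in control, from -0.30 to 0.17 in MUNC spliced and from -0.31 to 0.16 in MUNC genomic cells. In DM3 control libraries had 56.5, 59.5 and 60.3 FPM, below all those of MUNC spliced (75.4, 73.3 and 71.0 FPM) and MUNC genomic cells (77.6, 84.3 and 76.5 FPM). The log2 differences were 0.31 (SE 0.112, limma, adjusted p = 0.0325) and 0.43 (SE 0.112, limma, adjusted p = 0.00583).

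The MUNC spliced call in Tet3 was lost without control DM3 replicate 1 (limma, adjusted p = 0.0855), 2 (0.0670) or 3 (0.0570) and without MUNC spliced DM3 replicate 1 (0.0826) or 2 (0.0704). In GM, Tet3 had 56.9, 74.0 and 67.4 FPM in control and 84.0, 96.7 and 71.7 FPM in MUNC genomic cells, overlapping. The log2 difference was 0.34 (SE 0.112, limma, adjusted p = 0.0322), lost without control GM replicate 1 (0.24, 0.149) or 3 (0.36, 0.0561) or MUNC genomic GM replicate 1 (0.34, 0.0814) or 2 (0.24, 0.169). MUNC spliced GM had 72.8, 83.4 and 74.1 FPM, a log2 difference of 0.22 (95% interval -0.02 to 0.46).

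Tet1 and Tet3 thus stood in different proportions. Per kilobase the ratio of Tet3 to Tet1 was 8.60, 10.6 and 13.9 in control GM and 9.21, 9.40 and 8.24 in control DM3. It was 26.1, 32.7 and 32.2 in MUNC spliced DM3 and 30.8, 49.3 and 38.2 in MUNC genomic DM3. No control library reached any library of either line.

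Tdg (ENSMUSG00000034674, GRCm38 chr10:82629828-82650799, plus strand), the glycosylase downstream of TET oxidation, was lower in DM3 in all 3 kinds of cell. Control cells had 14.9, 18.1 and 19.5 FPM in GM and 10.04, 9.13 and 10.6 FPM in DM3, without overlap (log2 -0.75, SE 0.127, limma, adjusted p = 0.000107). MUNC genomic cells had 23.2, 19.9 and 25.0 FPM in GM and 16.1, 14.5 and 14.4 FPM in DM3, without overlap (log2 -0.56, SE 0.127, limma, adjusted p = 0.00158). MUNC spliced cells had 21.6, 19.9 and 20.8 FPM in GM and 16.97, 13.7 and 17.2 FPM in DM3. They did not overlap either (log2 -0.37, SE 0.127, limma, adjusted p = 0.0347), and the call was lost without GM replicate 1 (-0.34, 0.0991) or 3 (-0.37, 0.0841) or DM3 replicate 2 (-0.27, 0.160).

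Both lines had more Tdg than control in DM3, with all their libraries above all control libraries. The difference was 1.61-fold in MUNC spliced (log2 0.63, SE 0.127, limma, adjusted p = 0.000855) and 1.51-fold in MUNC genomic cells (log2 0.55, SE 0.127, limma, adjusted p = 0.00248). In GM the libraries of both lines were also above control. The MUNC genomic difference of 0.36 was called (SE 0.127, limma, adjusted p = 0.0454), but not without control GM replicate 1 (0.26, 0.188) or 2 (0.39, 0.0648) or MUNC genomic GM replicate 1 (0.34, 0.122) or 3 (0.29, 0.140). The MUNC spliced difference of 0.24 was not called (limma, adjusted p = 0.152).

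Tdg shares 367 exonic bases with Glt8d2 on the opposite strand, and whether counting used the strand is not given in the sources used here. Glt8d2 was also higher in DM3 in both lines, at 38.3 ± 6.64 FPM in MUNC spliced and 23.1 ± 3.12 FPM in MUNC genomic against 11.8 ± 1.73 FPM in control cells (SD, n = 3 each). Its log2 differences were 1.61 (limma, adjusted p = 1.50e-05) and 0.91 (limma, adjusted p = 0.00249). Between DM3 and GM in control cells Glt8d2 was not called (-0.48, limma, adjusted p = 0.0605). Its part in the Tdg values was not tested. The pseudogene Tdg-ps had at most 10 reads in a library.

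**Figure D4:**
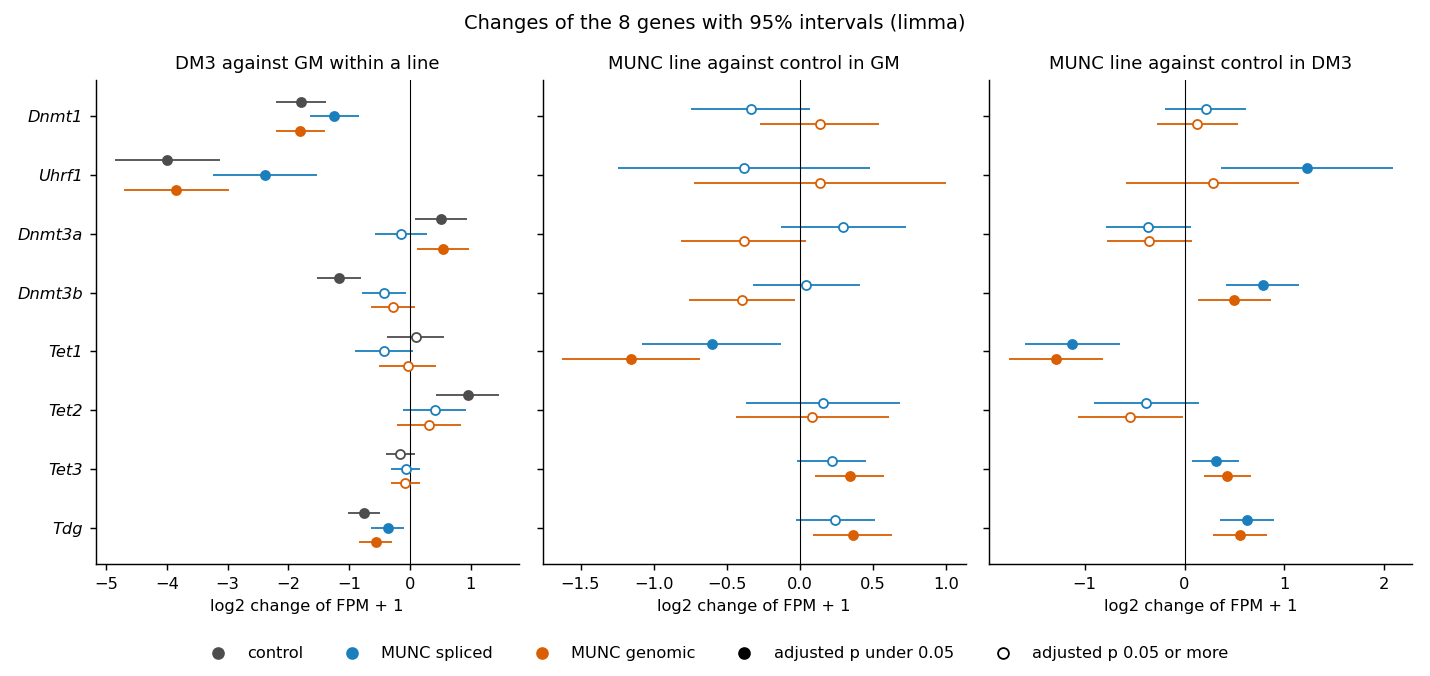
Log2 changes of FPM + 1 (horizontal axes) of the 8 genes with 95% intervals, for DM3 against GM in each kind of cell (left) and for each MUNC line against control in GM (middle) and in DM3 (right), with filled symbols for an adjusted p under 0.05. Uhrf1 and Dnmt1 lie left of 0 in the left panel in all 3 kinds of cell, and Tet1 lies left of 0 in both panels on the lines, at -1.12 and -1.29 in DM3.

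Counted over the comparisons with control, more of the 8 were called in DM3 than in GM. The share of all tested genes called was also larger in DM3, at 43.3% against 35.5% in MUNC spliced and 40.3% against 26.8% in MUNC genomic cells. By limma with all libraries the difference between the media was itself called only for Dnmt3b in MUNC genomic cells. In MUNC spliced cells that of Dnmt3b was near the threshold (0.74, limma, adjusted p = 0.0522). There DESeq2 called it, together with that of Uhrf1. In GM, 1 of 8 was called for MUNC spliced (Tet1, lower), where 35.5% of all tested genes were called. Of those calls 51.3% were higher, or 66.1% with libraries scaled to equal sums. In GM, 3 of 8 were called for MUNC genomic (Tet1 lower, Tet3 and Tdg higher), where 26.8% of all tested genes were called and 45.6% of the calls were higher, or 56.2% with equal sums. With the replicate block that count was 5, with Dnmt3b and Dnmt3a (-0.38, limma, adjusted p = 0.0410) added.

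In DM3, 5 of 8 were called for MUNC spliced (Uhrf1, Dnmt3b, Tet3 and Tdg higher, Tet1 lower), where 43.3% of all tested genes were called. Without MUNC spliced DM3 replicate 1 the count was 3, as it was without control DM3 replicate 2 or 3. In DM3, 4 of 8 were called for MUNC genomic (Dnmt3b, Tet3 and Tdg higher, Tet1 lower), where 40.3% of all tested genes were called. The replicate block added Dnmt3a in both lines (-0.36, limma, adjusted p = 0.0389 in MUNC spliced, and -0.35, adjusted p = 0.0461 in MUNC genomic). In GM the libraries of the line lay wholly above or below control for 1 of the 8 genes in MUNC spliced and 3 in MUNC genomic cells, where 43.6% and 37.9% of all tested genes did. In DM3 this held for 4 genes in each line, where 53.0% and 56.9% of all tested genes did. These comparisons share the control libraries, so that the 2 lines are not independent of each other. Between the lines in DM3 none of the 8 was called, where 44.2% of all tested genes were called. There, 1 of 8 had an unadjusted p under 0.05, and edgeR and DESeq2 each called 1, which was Uhrf1. The 2 lines had separate ranges of libraries for Dnmt3a and Dnmt3b in GM (2 of 8, where 45.7% of all tested genes had) and for Tet3 in DM3 (1 of 8, where 57.2% had). By limma Uhrf1 was called between the lines in DM3 without MUNC spliced DM3 replicate 2 (1.21, adjusted p = 0.0426) or 3 (1.36, adjusted p = 0.0146). With all libraries the difference was 0.94 (limma, adjusted p = 0.0713), and without MUNC spliced DM3 replicate 1 it was 0.26 (limma, adjusted p = 0.457).

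Some muscle markers also differed between the lines and control. Of 8 listed (Myod1, Myf5, Myog, Des, Cdh15, Pax7, Myh3 and Ckm) 7 were tested. Between DM3 and GM, 3 of the 7 were higher in control cells (median log2 change 0.38), with none lower. In MUNC spliced cells 5 were higher (1.01) and in MUNC genomic cells 6 (2.10), also with none lower. Of all tested genes 29.6%, 17.2% and 26.3% were higher. The response was higher than in control for 3 in MUNC spliced and 5 in MUNC genomic cells, where 14.4% and 8.81% of all tested genes were called. In MUNC spliced cells 4 of the 7 were higher than control in GM and 5 in DM3, with none lower (1 lower in DM3 without replicate 1). Of all tested genes 18.2% were higher in GM and 22.3% in DM3. At its control levels Myod1 could pass the filter on low values only through the MUNC lines, so the marker counts against control are a description. In MUNC genomic cells 2 were higher and 2 lower in GM, where 12.2% and 14.5% of all tested genes were. The median log2 difference of the 7 was -0.03 there. In DM3 5 were higher and 1 lower, where 19.3% and 20.9% of all tested genes were. A sum follows the most abundant genes of a list. Summed over the muscle markers, GM libraries held 128 to 163 FPM in control, 240.5 to 336 FPM in MUNC spliced and 387 to 684 FPM in MUNC genomic cells. In DM3 the sums were 212 to 289 FPM in control, 410 to 958 FPM in MUNC spliced, where replicate 1 was highest, and 1003 to 1173 FPM in MUNC genomic cells. Of the 2 endothelial markers, Cdh5 in MUNC genomic cells averaged 7.14 FPM during growth and 4.20 FPM after differentiation, against at most 0.199 FPM in the groups of the other cells, while Pecam1 averaged at most 0.158 FPM in every group. The 4 fibroblast markers, led by Col1a1, summed to 1941 to 2448 FPM in control, 3875 to 4370 FPM in MUNC spliced and 1427 to 1741 FPM in MUNC genomic cells of DM3. These sums do not describe each marker. Of the 3 tested, 1 was higher than control and none lower in DM3 in each line. Of all tested genes 22.3% were higher there in MUNC spliced and 19.3% in MUNC genomic cells. The part of muscle state or of other cell types in the differences of the 8 genes between lines was not tested.

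Per kilobase of exon, the order of levels in control GM was Uhrf1 (49.0 ± 8.10 FPM per kb), Dnmt1 (32.2 ± 6.91), Tet3 (3.96 ± 0.515), Tdg (3.25 ± 0.431), Dnmt3a (2.13 ± 0.421), Dnmt3b (1.24 ± 0.181), Tet2 (1.15 ± 0.414) and Tet1 (0.368 ± 0.0684; SD, n = 3 each). Tet3 and Tdg, and Dnmt3b and Tet2, had overlapping ranges of mean ± SD. In control DM3 Dnmt1 led with 9.08 ± 0.837 FPM per kb, ahead of Tet3 (3.52 ± 0.119), Dnmt3a (3.05 ± 0.482), Uhrf1 (2.92 ± 0.888), Tet2 (2.22 ± 0.461), Tdg (1.85 ± 0.138), Dnmt3b (0.454 ± 0.159) and Tet1 (0.395 ± 0.0380). There only the steps from Dnmt1 to Tet3 and from Tdg to Dnmt3b were wider than the SDs of neighbours. Uhrf1 thus ranked 1 in GM and 4 in DM3. In both MUNC lines Tet1 was last in both media, at 0.224 ± 0.0770 and 0.136 ± 0.0666 FPM per kb in MUNC spliced and MUNC genomic GM.

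The genes whose log2(FPM + 1) followed each member most closely over the 18 libraries were described by Pearson's r, with no test, since libraries of a group share their condition. For Uhrf1 they were Chaf1b (0.996), Cdc45 (0.996) and Cdc6 (0.995), all on the S phase list. For Dnmt1 they were Wdr90 (0.993), Hirip3 (0.990) and 9430015G10Rik (0.988). Dnmt3a was followed by Hcfc1r1 (0.926), Fbxo18 (0.900) and RP23-214P23.3 (0.899), and Dnmt3b by Strada (0.930), Mettl2 (0.926) and Prkab1 (0.911). For Tet1, at r up to 0.900, they were Cep112, Nckap1l and Osbpl6. For Tet2 they were Zfp629, Setd2 and Gm16185 (0.933 at most), for Tet3 Ppp6r3, Zdhhc21 and Eml5 (0.942 at most), and for Tdg Gnpat, Smarcb1 and Atr (0.967 at most).

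Of 45 other genes of the pathway, among them partners of maintenance, methyl-CpG readers, repair enzymes and TET cofactors, 38 were tested. In control cells 12 were higher and 14 lower in DM3 than in GM, where 29.6% and 28.6% of all tested genes were, and the median log2 change was 0.02, as over all tested genes. Hells, a chromatin remodeller needed for methylation, fell from 199 ± 13.9 to 18.8 ± 7.42 FPM (SD, n = 3 each; log2 -3.40, limma, adjusted p = 7.09e-07). Its partner Cdca7 fell from 66.9 ± 8.11 to 4.98 ± 0.673 FPM (log2 -3.50, limma, adjusted p = 1.12e-07). Gadd45a, a stress-response gene linked to demethylation, rose from 58.0 ± 49.8 to 148 ± 18.2 FPM (log2 1.65, limma, adjusted p = 0.00716). Zbtb4, a methyl-CpG reader, rose from 45.5 ± 5.86 to 127 ± 17.9 FPM (log2 1.46, limma, adjusted p = 3.04e-05).

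In MUNC spliced cells 10 pathway genes were higher and 13 lower in DM3, or 8 and 13 without DM3 replicate 1, where 17.2% and 18.4% of all tested genes were. In MUNC genomic cells 9 were higher and 18 lower, where 26.3% and 25.1% of all tested genes were. Gadd45a rose in both, reaching 92.0 ± 19.5 FPM in MUNC spliced cells and 189 ± 16.5 FPM in MUNC genomic cells (SD, n = 3 each). Apobec1, a cytidine deaminase, rose in MUNC spliced cells (log2 1.504, limma, adjusted p = 0.000339), and the glycosylase gene Neil3 fell (log2 -1.70, limma, adjusted p = 0.000980). Hells and Cdca7 fell in both lines, Cdca7 to 15.7, 8.09 and 6.49 FPM in the libraries of MUNC spliced DM3 and to 5.50 ± 0.938 FPM in MUNC genomic cells (SD, n = 3). Zbtb4 stood out in MUNC genomic cells, where it averaged 8.05 ± 3.02 FPM during growth and 30.4 ± 1.31 FPM after differentiation, against 127 ± 17.9 FPM in control DM3. The log2 differences from control were -2.41 in GM (limma, adjusted p = 3.03e-07) and -2.02 in DM3 (limma, adjusted p = 1.36e-06). Zbtb4 was also lower than control in MUNC spliced DM3 (-0.59, limma, adjusted p = 0.0358). That call was lost without replicate 1 (-0.42, limma, adjusted p = 0.159).

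Against control in GM, 2 pathway genes were higher and 8 lower in MUNC spliced cells, where 18.2% and 17.3% of all tested genes were. In MUNC genomic GM 4 were higher and 2 lower, where 12.2% and 14.5% of all tested genes were. Ahcy, which clears the by-product of methyl transfer, was lower in both lines (log2 -0.88 and -0.66, limma, adjusted p = 0.00639 and 0.0398). In DM3 the counts were 10 higher and 10 lower in MUNC spliced cells, or 3 and 7 without replicate 1, where 22.3% and 21.0% of all tested genes were. In MUNC genomic DM3 they were 5 higher and 9 lower, where 19.3% and 20.9% of all tested genes were. Cxxc5, which encodes a CXXC protein that binds CG-rich DNA, rose in both lines in both media. In MUNC spliced DM3 the call was lost without replicate 1 (0.83, limma, adjusted p = 0.106), and in MUNC genomic GM the libraries overlapped control. Cxxc5 was 11.05 ± 3.59 FPM in control GM, 27.7 ± 11.9 FPM in growing MUNC spliced cells and 28.7 ± 14.3 FPM in growing MUNC genomic cells (SD, n = 3 each). In DM3 it was 14.3 ± 2.01 FPM in control, 28.3 ± 6.47 FPM in MUNC spliced (log2 0.92, limma, adjusted p = 0.0397) and 43.8 ± 6.25 FPM in MUNC genomic cells (log2 1.55, limma, adjusted p = 0.00183). Neil1, a glycosylase of base excision repair, rose from 3.47 ± 0.220 to 8.53 ± 0.573 FPM in MUNC genomic DM3 (log2 1.09, limma, adjusted p = 0.000195). In MUNC spliced DM3 Neil1 fell to 0.681 ± 0.361 FPM (log2 -1.43, limma, adjusted p = 1.49e-05), a value looked up after the MUNC genomic one was seen. Hells rose in MUNC spliced DM3 to 43.8 ± 29.7 FPM, with overlapping libraries (log2 1.05, limma, adjusted p = 0.0174), a call lost without replicate 1 (0.55, limma, adjusted p = 0.0963). Zfp57, which protects imprinted methylation, fell (log2 -0.84, limma, adjusted p = 0.00349). Gadd45b fell in MUNC genomic DM3 (log2 -1.03, limma, adjusted p = 0.00748). Dnmt3l and Dppa3, partners known from germ cells, averaged at most 0.0506 FPM in any group.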

How the data were processed

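Expression was measured by poly(A) RNA sequencing in 18 libraries of 6 groups with 3 biological replicates each. The submitters' processing notes name STAR, HTSeq, DESeq2 and the build mm10, with no versions or roles. The deposited values are an FPM signal, and 100% of them were whole reads divided by a size factor, to within 0.0354 of a read. FPM sums lay between 946834 and 1048477, and 3 reads, taken as the floor of detection, were worth 0.0429 to 0.0757 FPM. Counting intervals cover counting error only. The authors' deposited comparison tables give log2 fold changes and adjusted p-values, used only where named, and the test score deposited by the authors was not used.

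Genes with at least 0.5 FPM in at least 3 libraries were kept, and log2(FPM + 1) was fitted with limma 3.58.1 (R 4.3.3, trend) over all 18 libraries as 6 group means, with 12 residual degrees of freedom and 12 comparisons. P-values measure the spread between samples labelled biological replicates. Alternatives were other pseudocounts, filters and scalings, edgeR 4.0.16 and DESeq2 1.42.0 on the recovered reads, the compared groups alone, the replicate block and leaving out each library. Replicate numbers were taken to pair libraries where every same-numbered pair had deviations correlated above 0.1. This held in 6 of 9 comparisons of 2 groups, with r between 0.171 and 0.727. Exon lengths (all annotated exons) and coordinates came from GENCODE M21, in which 97.8% of gene IDs were found. Members and lists were chosen with earlier results of these data known. Named from each list were up to 2 genes that rose most and 2 that fell most among called genes averaging at least 5 FPM in the higher group, and the 3 genes most correlated with each member. The fit was tested on simulated data.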

Additional observations from a re-analysis of the deposited data

Results flagged for a closer look

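The response of Dnmt3b to differentiation differed between MUNC genomic and control cells by a test of the difference itself. The change in control cells was -1.16 and that in MUNC genomic cells -0.27 on the log2 scale, a difference of 0.89 (limma interaction, adjusted p = 0.0294). All 3 control DM3 libraries were below all 3 control GM libraries, while the MUNC genomic groups overlapped. The call was not made by edgeR on recovered reads (1.13, adjusted p = 0.0527) or with no filter on low values (limma, adjusted p = 0.0801). It was also lost in 7 of 12 fits that leave out 1 library. The response in MUNC spliced cells was 0.74 above control, which missed the threshold (limma, adjusted p = 0.0522).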

How the results depend on the processing

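Of 28 calls among the 8 genes, 18 were kept under every other setting and 17 also without any single library, and none reversed. The authors' deposited tables hold 40 values of the 8 genes, all of the same sign as limma's, and 15 were called in both. Limma alone called 4, each against control: Uhrf1 in MUNC spliced DM3, Tet1 in MUNC spliced GM, and Tet3 and Tdg in MUNC genomic GM. The authors' tables alone called 2, Dnmt3a and Tet2, both lower in MUNC genomic DM3 than in control. The number of the 8 called moved as follows. For MUNC spliced against control in GM it was 0 with a pseudocount of 0.1 or 0.5, no filter, edgeR, DESeq2 or the compared groups only, 2 with equal sums, and 0 to 1 leaving out a library. For MUNC genomic against control in GM it was 1 with the compared groups only, 5 with the replicate block, and 1 to 2 leaving out a library, and in DM3 for MUNC spliced 3 to 5. Between the lines in GM it was 2 with equal sums or DESeq2, 0 with the compared groups only, 4 with the block and 0 to 2 leaving out a library, and in DM3 1 with edgeR or DESeq2, 2 with the block and 0 to 1 leaving out a library. For the response of MUNC spliced minus control it was 1 with edgeR, 2 with DESeq2, 3 with the block and 0 to 1 leaving out a library. For MUNC genomic minus control it was 0 with no filter or edgeR and 0 to 1 leaving out a library, and between the lines 1 with the block and 0 to 1 leaving out a library. Over all tested genes, 4933 calls for MUNC spliced DM3 against GM became 3046 with the compared groups only (3297 to 5378 leaving out a library). The 1993 calls of the response of MUNC spliced minus control became 1214 with the compared groups only, 3868 with the block and 1063 to 2434 leaving out a library. The 1222 of MUNC genomic minus control became 777 with edgeR, 2265 with the block and 784 to 1345 leaving out a library, and the 1460 between the lines 2716 with the block and 930 to 1597. Where the numbers pair libraries, the replicate block changed no call other than those given beside the results. Where they share only a number, the block called Dnmt3b in MUNC spliced DM3 against GM (adjusted p = 0.00694), Uhrf1 (0.0459) and Dnmt3b (0.0450) between the lines in DM3, and further responses counted above. With equal sums 41.4% of the response calls of MUNC spliced minus control were higher, against 51.7%, and 62.1% with edgeR. The causes were not tested. Depth limits Tet1 most, at 50 reads in the lowest library.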

Other observations

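Of 18 germline genes known to be silenced by promoter methylation, 3 passed the filter on low values (Taf7l, Sycp1 and Brdt), and the summed level stayed between 2.70 and 8.17 FPM in every library. Brdt, a testis bromodomain gene, averaged 0.0118 FPM in growing and 0.0324 FPM in differentiated control cells, below the 3-read floor. During growth it averaged 1.67 ± 0.612 FPM with the spliced form and 0.532 ± 0.191 FPM with MUNC genomic. After differentiation it averaged 1.77 ± 0.282 and 2.27 ± 0.413 FPM, in the same order (SD over 3 libraries). It passed the filter only through the MUNC groups, so these levels are a description with no test. DNA methylation was not measured in these libraries.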
